A study of Mus musculus with 6 samples.

Results

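The *Id*, *Hes* and *Hey* genes described here were 8 in number, *Id1*, *Id2*, *Id3*, *Id4*, *Hes1*, *Hes5*, *Hey1* and *Hey2*, of 21866 protein-coding genes in the mm10 annotation. Open chromatin was assigned to them by position alone: a peak belonged to a gene when its summit lay in the gene body or within 100 kb of it. After summits were merged into sites of 400 bp with a peak in at least 2 libraries, 251 of 160980 sites lay near these genes. The data are ATAC-seq peak lists (the assay tags accessible DNA by transposition) from astrocyte nuclei of primary visual cortex (V1) at postnatal day 21 (P21). All mice were GR fl/fl and differed in the AAV2/5 they received at P0–P1. GR-con libraries came from mice given the inactive ΔCre and GR-KO libraries from mice given Cre, each under the astrocyte promoter GfaABC1D and linked to EGFP-KASH, which marks the nuclear envelope, with the 4x6T element. There were 3 libraries per condition, each from V1 pooled from 3–4 mice and from 50000 sorted DRAQ5+/GFP+ nuclei. The sort thus selected for infected cells in which the promoter is active, and the lists do not give its purity. Nuclei that kept GR could not be told apart from those that lost it. For this gene family, the comparison of GR-KO with GR-con asks whether chromatin at these loci differs when the glucocorticoid receptor (GR) is deleted from astrocytes.

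ID proteins are helix-loop-helix proteins without a DNA-binding basic region. They pair with E proteins such as TCF3 and keep them, and the proneural factors that depend on them, off DNA. *Id* genes are classic targets of bone morphogenetic protein (BMP) signalling through SMAD proteins, which favours the astrocyte fate. HES and HEY proteins are DNA-binding bHLH repressors, of which the HES proteins recruit TLE corepressors. Most of the *Hes* and *Hey* genes are direct targets of the Notch intracellular domain bound to RBPJ. In the developing cortex HES and HEY proteins hold progenitors back from neuronal differentiation.

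The upstream sequences of *Hes5*, *Hey2* and *Id4* are shown because they hold words of the kind that RBPJ and the BMP-linked SMAD proteins are known to bind; a word is a description of the letters and not a bound site. They are RefSeq sequences of GRCm38.p6, the assembly of mm10, and end before the first transcribed base in the RefSeq and GENCODE annotations. Each is printed 5′ to 3′ on the strand of the gene, and capitals mark the RBPJ word GTGGGAA (or TTCCCAC, its reverse complement) and the BMP response word GGCGCC, which reads the same on both strands. The 3 stretches are chr4:154960673-154960922 on the plus strand, chr10:30842802-30843033 on the minus strand and chr13:48260866-48261115 on the plus strand.
Hes5: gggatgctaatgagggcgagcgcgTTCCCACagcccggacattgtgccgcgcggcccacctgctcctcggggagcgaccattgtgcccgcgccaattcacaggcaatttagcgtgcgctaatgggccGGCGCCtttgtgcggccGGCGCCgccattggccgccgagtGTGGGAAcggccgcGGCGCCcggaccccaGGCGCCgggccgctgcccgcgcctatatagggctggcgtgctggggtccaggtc
Hey2: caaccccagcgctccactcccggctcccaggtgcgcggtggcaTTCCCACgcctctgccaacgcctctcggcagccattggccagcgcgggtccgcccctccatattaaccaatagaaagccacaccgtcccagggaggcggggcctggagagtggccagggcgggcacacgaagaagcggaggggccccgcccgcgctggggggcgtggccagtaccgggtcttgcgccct
Id4: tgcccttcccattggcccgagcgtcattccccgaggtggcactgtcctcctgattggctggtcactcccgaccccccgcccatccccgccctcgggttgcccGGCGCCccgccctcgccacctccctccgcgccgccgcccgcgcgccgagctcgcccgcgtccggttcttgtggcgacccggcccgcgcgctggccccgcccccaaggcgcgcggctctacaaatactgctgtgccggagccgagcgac

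*Hes5* held 2 RBPJ words in opposite orientation, and 4 GGCGCC words, of which 2 lie between the RBPJ words. The *Hey2* stretch held 1 RBPJ word and no GGCGCC, and the *Id4* stretch held 1 GGCGCC and no RBPJ word. Sequences of the same kind (300 bases around the RefSeq start) were held for 5 of the 8 genes, *Id2*, *Id3*, *Id4*, *Hes5* and *Hey2*. In these 300 bases, which run past the start site, *Hey2* held 2 RBPJ words and 1 GGCGCC, *Hes5* 2 and 4, *Id2* and *Id4* no RBPJ word and 1 GGCGCC each, and *Id3* neither. Of 32851 RefSeq promoters, 6.38% held GTGGGAA and 11.9% held GGCGCC on either strand.

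Every one of the 8 genes had an accessible promoter in all 6 libraries, and none of the 8 promoter sites passed the test in either direction. Of 21866 protein-coding genes, 14173 had a promoter site, and 12319 of 13121 promoter sites had a peak in all 6 libraries. A promoter site was the site of highest rank whose centre lay within 500 bp of a start site of the gene. Its value in a library was the fold enrichment of the peak summit over the local background of that library, or the −log10 of its p-value, as the authors deposited both. Because the libraries share no scale, values were ranked within each library, the ranks were turned into normal scores, and GR-KO was compared with GR-con by limma with Benjamini-Hochberg adjustment over all 160980 sites. A score difference of 1 is 1 SD of the sites of a library.

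*Hey2*, a Notch and BMP target known for its role in cardiac and vascular development, had the strongest promoter of the 8. Its site (chr10:30842710-30843109, centred 109 bp upstream of the start site) had a fold of 16.4, 15.9 and 15.1 in the GR-con libraries against 20.1, 18.8 and 19.1 in the GR-KO libraries, replicates 1 to 3 in order here and throughout. All 3 GR-KO libraries were above all 3 GR-con libraries, at 19.3 ± 0.652 against 15.8 ± 0.634 (SD, n = 3 each). The score differed by 0.33 (SE, standard error, 0.06), with an adjusted p of 0.0866 in limma, which missed the limit of 0.05. By −log10 p the promoter stood at 384, 384 and 371 in GR-con and at 445, 469 and 425 in GR-KO, again without overlap, with a score difference of 0.20 (SE 0.07; limma, adjusted p = 0.202). Over the alternatives tried, its adjusted p in the limma fit ran from 0.0730 to 0.248 by fold.

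Among the *Id* genes, the *Id4* promoter was the strongest, and its groups overlapped by fold. *Id4* (chr13:48260642-48261041, in an intron of the noncoding transcripts *A330033J07Rik* and *Gm49291*) had a fold of 10.3, 11.5 and 10.4 in the GR-con libraries against 12.03, 12.2 and 11.3 in the GR-KO libraries. *Id1* (chr2:152736003-152736402) had a fold of 8.86, 9.74 and 8.60 in the GR-con libraries against 10.2, 9.04 and 9.19 in the GR-KO libraries. The GR-con libraries of *Id1* spanned part of the range of the GR-KO libraries. *Id2* (chr12:25096031-25096430, over its untranslated region) had a fold of 7.08, 6.76 and 5.85 in the GR-con libraries against 7.45, 7.30 and 7.36 in the GR-KO libraries, so that the groups did not overlap, by a gap smaller than the SD of GR-con (6.56 ± 0.638 against 7.37 ± 0.0750, SD, n = 3 each). *Id3* (chr4:136143574-136143973, over its untranslated region) had a fold of 5.34, 5.06 and 4.71 in the GR-con libraries against 5.24, 4.93 and 5.03 in the GR-KO libraries, with the GR-KO values inside the GR-con range. The score differences of these 4 promoters by fold were 0.12 for *Id4*, 0.07 for *Id1*, 0.14 for *Id2* and 0.06 for *Id3*, with adjusted p-values from limma of 0.486, 0.746, 0.510 and 0.890.

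Of the other Notch-linked repressors, *Hes1*, whose expression oscillates in neural progenitors, had a promoter site (chr16:30065027-30065426) with a fold of 6.33, 7.01 and 6.24 in the GR-con libraries against 7.44, 6.49 and 6.86 in the GR-KO libraries. *Hes5*, a Notch target of radial glia and astrocyte precursors, had a site (chr4:154960559-154960958) with a fold of 5.78, 5.92 and 5.10 in the GR-con libraries against 5.77, 5.30 and 5.29 in the GR-KO libraries. In both genes the groups overlapped. *Hey1* (chr3:8666901-8667300, over its untranslated region) had a fold of 7.63, 7.50 and 6.20 in the GR-con libraries against 8.65, 8.17 and 7.12 in the GR-KO libraries, also with overlap. The score differences by fold were 0.09 for *Hes1*, 0.02 for *Hes5* and 0.14 for *Hey1*, with adjusted p-values from limma of 0.726, 0.974 and 0.544. Scores come from ranks within each library, and at *Hes5* the difference was positive although the folds themselves were not higher in GR-KO. By −log10 p, too, these 3 genes and the 4 *Id* genes had adjusted p-values from 0.290 (*Id2*) to 0.776 (*Hes5*) in limma.

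**Figure D1:**
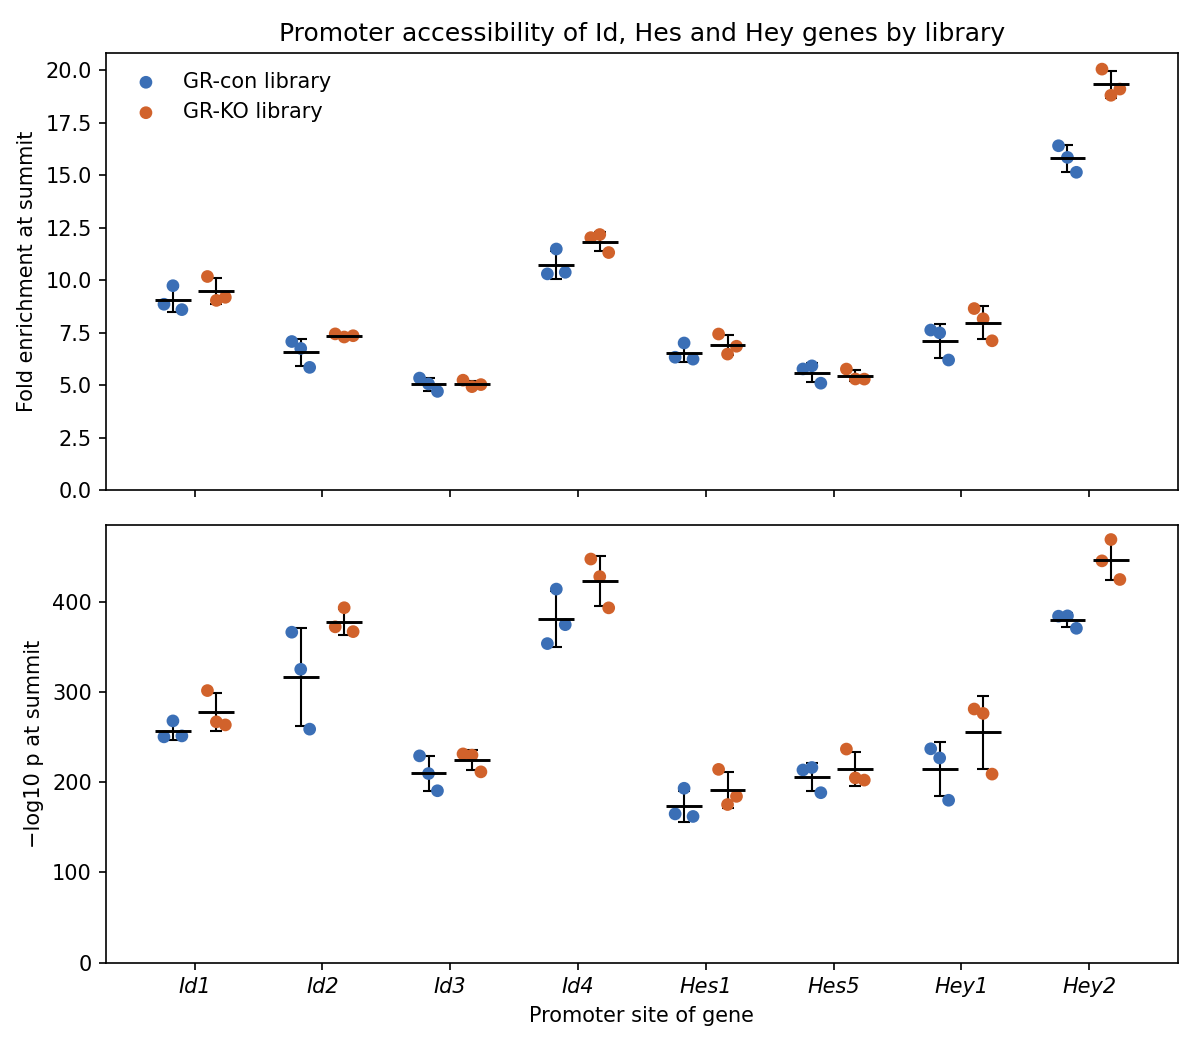
Fold enrichment (top) and −log10 p (bottom) of the summit at the promoter site of each gene, with 1 point per library, GR-con in blue and GR-KO in orange; black lines are the mean and whiskers the SD of 3 libraries. The GR-KO points at *Hey2* lie between 18.8 and 20.1 in fold, above the GR-con points at 15.1 to 16.4, and at *Hes5* and *Id3* the groups overlap.

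The order of the promoters was separated at few steps. Averaged over the 6 libraries, the fold percentile, the share of the peaks of a list that a promoter exceeds, was 91.9 for *Hey2*, 80.8 for *Id4*, 75.2 for *Id1*, 68.5 for *Hey1*, 65.9 for *Id2*, 64.8 for *Hes1*, 57.1 for *Hes5* and 53.3 for *Id3*. Only 2 steps of that order separated the ranges of neighbouring genes over the 6 libraries: *Hey2* (89.0 to 94.6) from *Id4* (77.3 to 82.8), and *Hes1* (61.2 to 68.2) from *Hes5* (55.0 to 58.8). All other neighbours overlapped. By −log10 p, which grows with coverage as well as with enrichment, the 8 promoters stood between percentiles 89.3 and 98.6 in all libraries, and *Id2* reached percentile 95.9 ± 1.13 in GR-con and 97.2 ± 0.334 in GR-KO (SD, n = 3 each). The *Hes1* peak was the narrowest, at 370 ± 8.74 bp in GR-con and 378 ± 2.65 bp in GR-KO, and the *Hey1* peak the widest, at 1487 ± 19.7 bp and 1479 ± 27.5 bp (SD, n = 3 each). At *Id2* the peak was narrower in every GR-KO library (577 ± 4.73 bp) than in every GR-con library (604 ± 23.1 bp, SD, n = 3 each), with p = 0.1 by a two-sided exact permutation test, the smallest that 3 libraries against 3 can give, and 9.27% of 12319 promoter sites with a peak in all 6 libraries were narrower in this way and 2.37% wider; the other 7 genes had p-values from 0.4 to 0.9 in that test.

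Beyond the promoters, the sites were unevenly spread over the 8 loci. There were 45 near *Id1*, 41 near *Id3*, 39 near *Hes5*, 35 near *Id2*, 29 near *Id4*, 25 near *Hey1*, 23 near *Hes1* and 14 near *Hey2*. *Id4* and *Hes1* stood alone in their windows, as did *Hey1*, with no other protein-coding gene. The *Hes5* window held 6 others, and the nearest protein-coding start site was that of *Hes5* at 5 of its 39 sites. Over all 8 genes it was the listed gene's own at 136 of 251 sites. By annotation, 122 sites were intergenic, 105 intronic, 11 in untranslated regions, 9 in exons of transcripts not annotated as protein-coding and 4 in coding exons. A peak was listed in all 6 libraries at 174 of the 251 sites (69.3%) and at 62.0% of all sites; the median fold percentile was 49.2 over the 251 sites and 45.8 over all sites, and the difference was not tested.

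**Figure D2:**
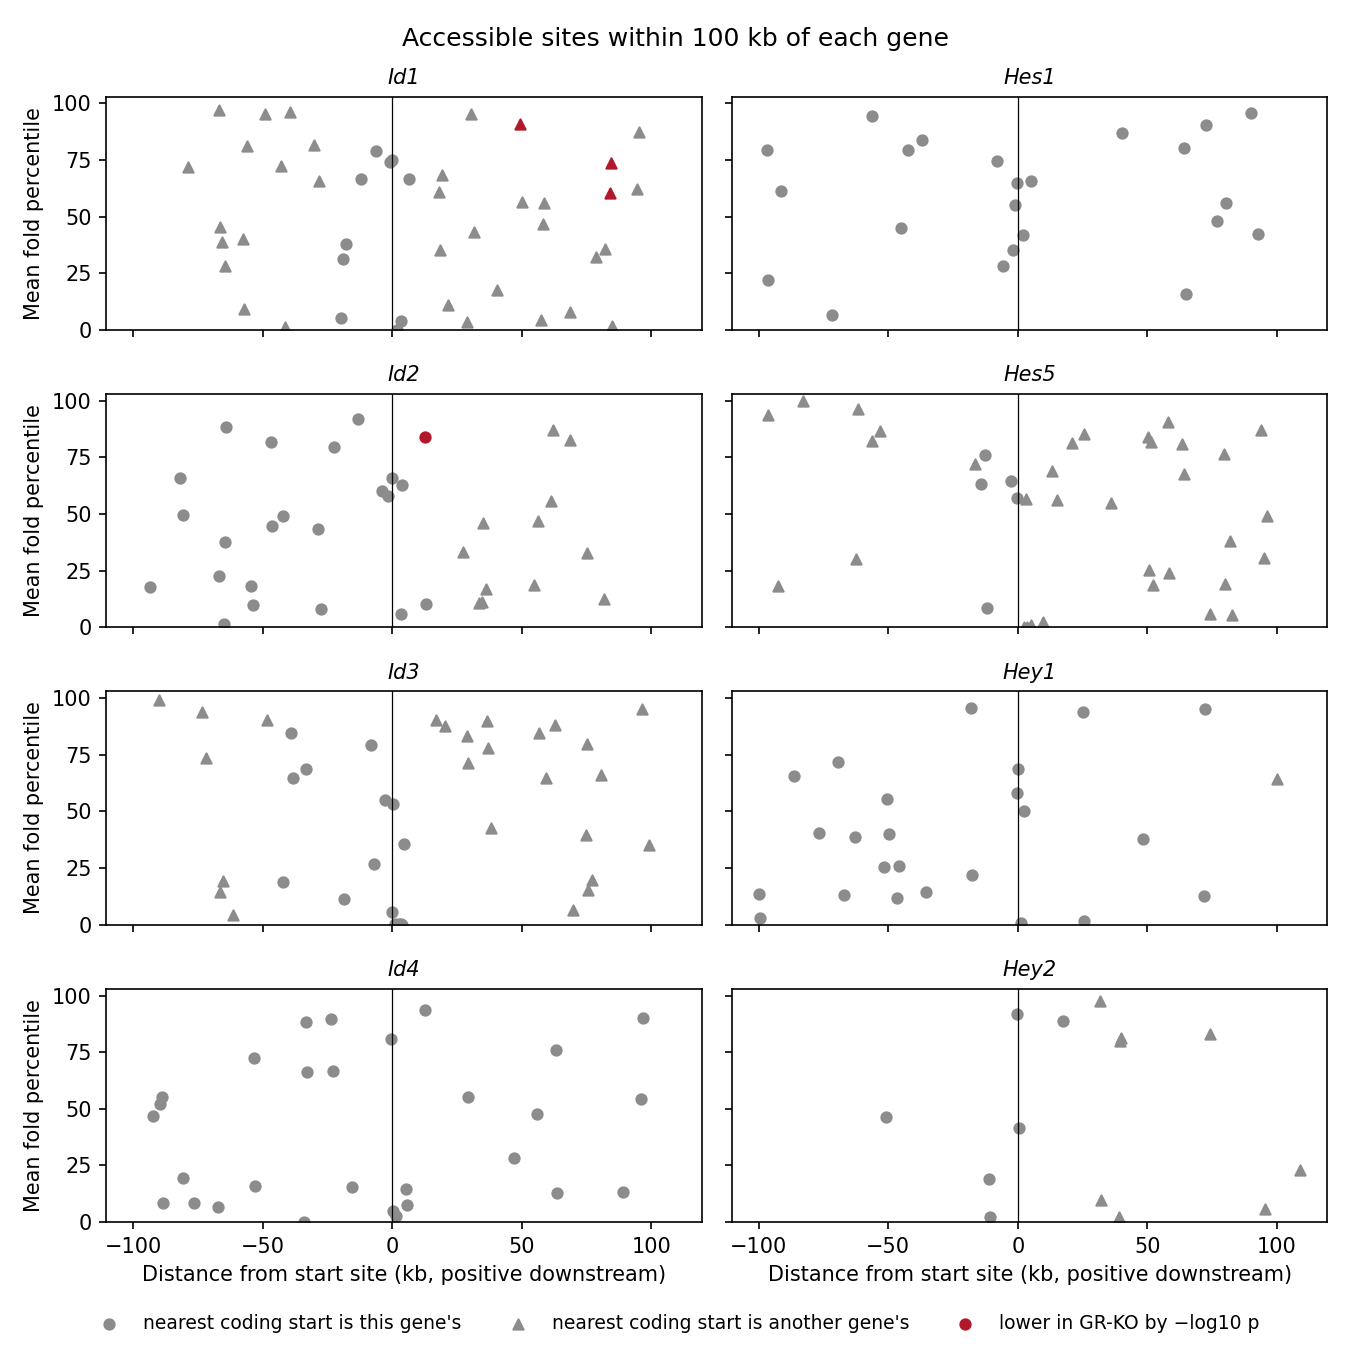
Each of the 251 sites by its distance from the start site of the gene in kb (horizontal, positive downstream) and its mean fold percentile over 6 libraries (vertical), 1 panel per gene. Circles are sites whose nearest protein-coding start is that gene's, triangles the others, and red the 4 sites that ranked lower in GR-KO by −log10 p, 3 of them near *Id1* and 1 near *Id2*.

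The strongest distal elements of the 8 genes did not pass the test either. These were, for each gene, the highest-ranking site over 500 bp from any protein-coding start and nearest to the start of that gene. The *Hes1* element, 90.0 kb downstream (chr16:30155159-30155558, intergenic), was the strongest in its window, with a fold of 23.8, 20.7 and 23.2 in the GR-con libraries against 20.1, 20.3 and 19.3 in the GR-KO libraries. Every GR-KO library was below every GR-con library there. By −log10 p the same element had 255, 225 and 257 in GR-con and 169.6, 186 and 159 in GR-KO, a score difference of −0.22 (SE 0.06; limma, adjusted p = 0.0650); by fold the adjusted p was 0.364. The *Id1* element 6.5 kb upstream (chr2:152729586-152729985, intergenic) lay the other way, with a fold of 10.4, 10.3 and 8.04 in the GR-con libraries against 12.6, 11.2 and 11.7 in the GR-KO libraries. By −log10 p its score difference was 0.24 (SE 0.07; limma, adjusted p = 0.0902), also not called. The remaining elements were *Id2* 13.3 kb upstream, *Id3* 38.9 kb upstream, *Id4* 12.7 kb downstream, *Hes5* 12.5 kb upstream, *Hey1* 18.2 kb upstream and *Hey2* 17.6 kb downstream, and their adjusted p-values in limma lay between 0.571 and 0.987 by fold. At the *Hey1* element the fold was 21.2 ± 1.60 in GR-con and 20.9 ± 1.46 in GR-KO, and at *Id4* it was 18.2 ± 1.16 and 19.1 ± 0.563 (SD, n = 3 each).

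By fold, 0 of the 251 sites were called lower in GR-KO and 0 higher at an adjusted p under 0.05 in limma, where 0.126% of all sites were lower and 0.0609% higher. At an unadjusted p under 0.05 the counts were 9 lower (6.01% of all sites) and 18 higher (6.12% of all sites), or 3.59% and 7.17% of the 251. By −log10 p, 4 of 251 (1.59%) were called lower and 0 higher, with 0.836% of all sites lower and 0.759% higher. The unadjusted counts by −log10 p were 9 lower (6.37% of all sites) and 26 higher (6.98% of all sites). Without adjustment or model, every GR-KO library ranked below every GR-con library in fold at 14 sites (7.57% of all sites) and above at 41 (16.3% of the 251, 11.6% of all sites). The median score difference was 0.0272 over the 251 sites and 0.0165 over all sites by fold, and 0.0236 and 0.00568 by −log10 p. The counts are read against these background shares, and nothing particular to the 8 loci is drawn from them. Promoters of the genome gave few calls as well. Of 13121 promoter sites 0.061% were lower and 0.00762% higher by fold, and 0.29% were lower and 0.152% higher by −log10 p, while 0 of the 19 promoter sites in the 8 windows were called.

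The 4 called sites were 1 near *Id2* and 3 in introns of *Bcl2l1*, the gene of the anti-apoptotic protein BCL-xL, which lies inside the window of *Id1*. The *Id2* site (chr12:25083249-25083648) was intergenic, 12.6 kb downstream of the start site, and *Id2* was its nearest protein-coding gene. Its −log10 p was 153, 105 and 91.2 in GR-con and 54.6, 51.5 and 52.7 in GR-KO, and its fold 17.2, 14.4 and 13.6 against 11.7, 10.9 and 10.3. Neither measure overlapped between the groups. The score fell by 0.36 by −log10 p (SE 0.08; limma, adjusted p = 0.0176; 0.0153 to 0.283 over the alternatives) and by 0.33 by fold (SE 0.08; limma, adjusted p = 0.147). Without GR-con 1, GR-con 2, GR-KO 1, GR-KO 2 or GR-KO 3 its adjusted p by −log10 p in limma was 0.180, 0.143, 0.0821, 0.109 and 0.0869. With the covering peak in place of the summit it was 0.168, with the replicate block 0.0569 and without the variance trend 0.283. The site was called in none of these. Leaving out a library also lowered the count of all sites called lower by −log10 p, from 1346 to between 187 and 851.

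In *Bcl2l1*, 2 of the called sites adjoin. The one farther from *Id1* (chr2:152820282-152820681), 84.2 kb downstream of the *Id1* start and 9828 bp from the nearest *Bcl2l1* start, had a −log10 p of 163, 125 and 118 in the GR-con libraries against 45.9, 34.8 and 25.9 in the GR-KO libraries. Its fold was 12.6, 11.3 and 10.8 against 7.88, 7.13 and 5.98. The lowest GR-con library was above the highest GR-KO library in both measures. The score fell by 0.66 by −log10 p (SE 0.08; limma, adjusted p = 0.000124), with adjusted p-values from 9.66e-05 to 0.0647 over the alternatives. The site stayed called with each library left out and by the covering peak (0.0459), and was not called without the variance trend (0.0647). By fold it fell by 0.43 (SE 0.08; limma, adjusted p = 0.0928). The adjoining site (chr2:152819879-152820278, 83.8 kb downstream of *Id1*) fell by 0.64 by −log10 p (SE 0.12; limma, adjusted p = 0.00957; 0.00822 to 0.251 over the alternatives), from 109.9, 83.7 and 44.0 in GR-con to 28.7, 17.3 and 11.6 in GR-KO. By fold it was 9.78, 8.78 and 6.01 in the GR-con libraries against 5.94, 4.78 and 3.84 in the GR-KO libraries, a score difference of −0.43 (SE 0.14; limma, adjusted p = 0.280). The pair adjoin and are not independent. The adjoining site was no longer called without GR-con 1 (adjusted p = 0.221 from limma), GR-con 2 (0.190), GR-KO 2 (0.0799) or GR-KO 3 (0.0842), nor without the variance trend (0.251).

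The third *Bcl2l1* site showed how far the measures can part. This site (chr2:152785471-152785870, 49.4 kb downstream of *Id1*, nearest start that of *Cox4i2*) had a −log10 p of 441, 458 and 412 in the GR-con libraries against 346, 292 and 319.5 in the GR-KO libraries, a score difference of −0.38 (SE 0.07; limma, adjusted p = 0.00602; 0.00521 to 0.134 over the alternatives). In fold it was 16.8 ± 0.319 in GR-con and 16.7 ± 0.851 in GR-KO (SD, n = 3 each), a score difference of 0.01 within the spread between libraries (adjusted p = 0.983 from limma). It was no longer called by −log10 p without GR-con 1 (adjusted p = 0.0825 from limma), GR-con 2 (0.0841) or GR-KO 2 (0.0755), by the covering peak (0.0503) or without the variance trend (0.134).

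Peak presence gave 1 site of the 251 with a peak in all 3 GR-KO lists but none of the GR-con lists, where 0.618% of all sites were of this kind, and 0 sites with the reverse, where 1.15% of all sites were. The 1 site lay 11.2 kb upstream of *Hey2* (chr10:30853822-30854221, intergenic), with a fold of 4.15, 4.35 and 2.99 and a −log10 p of 9.19, 9.66 and 4.87 in GR-KO 1, 2 and 3. No GR-con list held a peak there, and in the GR-KO lists it stood at fold percentiles of 44.2, 45.9 and 23.5, below the middle of each. By the covering peak, which must cover over 200 bp of the site, GR-KO 3 had no peak there either, and 0 sites were of this kind. Since the site was kept through its GR-KO peaks alone and the GR-con libraries were ranked lowest for want of a peak, no test of the difference is given.

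**Figure D3:**
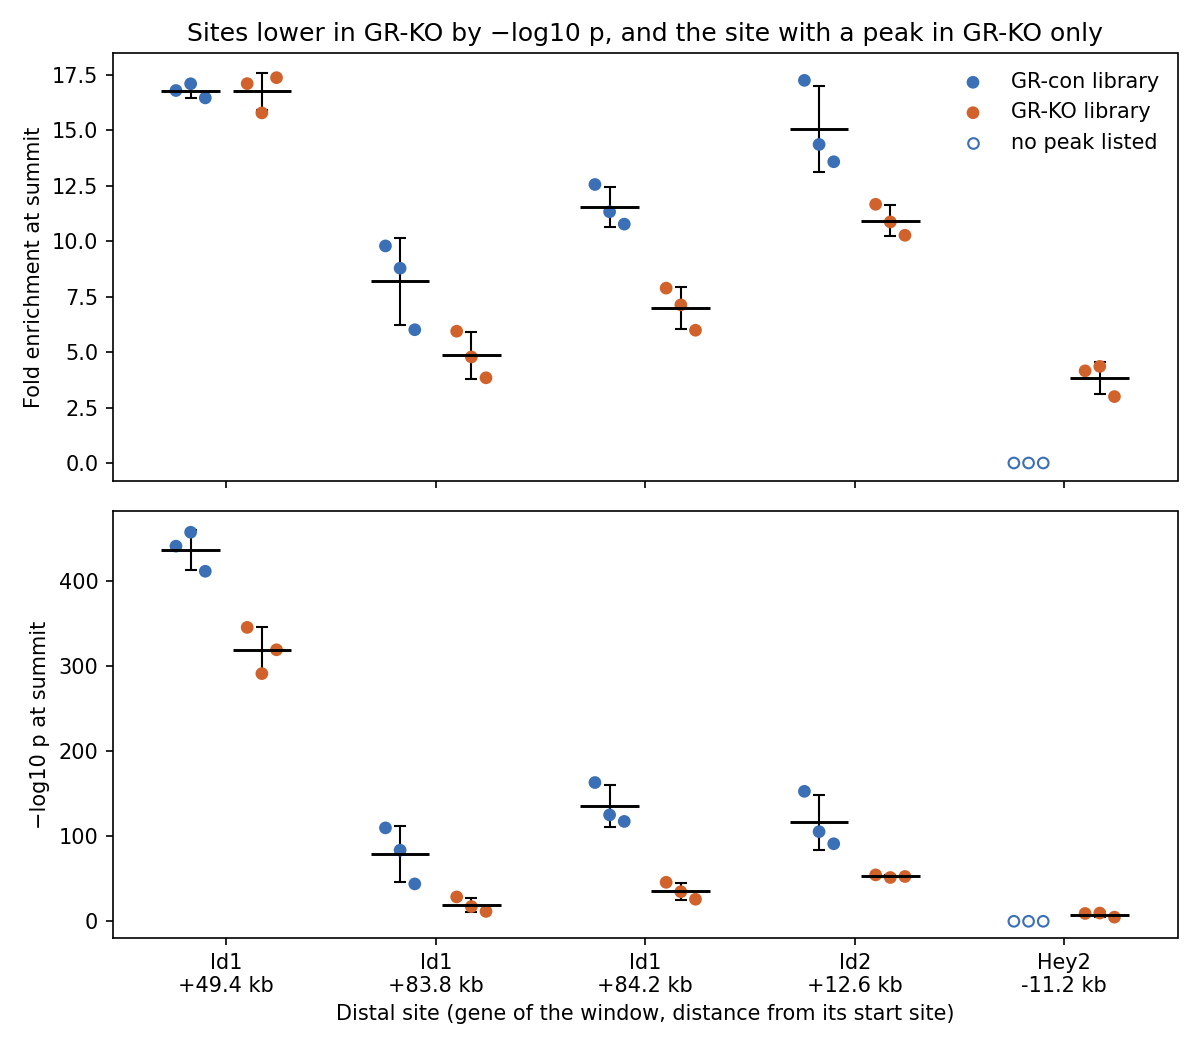
Fold enrichment (top) and −log10 p (bottom) in each library at the 4 sites called lower in GR-KO by −log10 p and at the *Hey2* site with a peak in GR-KO only; black lines are the mean and whiskers the SD of 3 libraries, and open circles at 0 are libraries with no peak listed. At the *Id1* site 49.4 kb downstream the groups overlap in fold (16.5 to 17.1 in GR-con, 15.8 to 17.4 in GR-KO) but not in −log10 p.

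The sequences of 3 of these sites are shown because they are the called site that holds a match to the GR consensus, the called site whose nearest gene is *Id2*, and the site with a peak in GR-KO only. Each is 300 bases around the centre of the site on the plus strand of GRCm38.p6, and capitals mark the GR 15-bp consensus or the GR half-site AGAACA (either strand), which can form part of the consensus. They are chr2:152820332-152820631 in *Bcl2l1*, chr12:25083299-25083598 near *Id2* and chr10:30853872-30854171 near *Hey2*.
Bcl2l1 intron: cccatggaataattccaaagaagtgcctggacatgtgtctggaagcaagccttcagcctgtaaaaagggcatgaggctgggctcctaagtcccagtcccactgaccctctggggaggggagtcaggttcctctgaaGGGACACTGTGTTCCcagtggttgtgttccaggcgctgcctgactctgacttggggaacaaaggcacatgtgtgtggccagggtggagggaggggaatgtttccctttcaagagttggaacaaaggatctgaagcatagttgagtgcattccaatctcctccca
Id2 downstream: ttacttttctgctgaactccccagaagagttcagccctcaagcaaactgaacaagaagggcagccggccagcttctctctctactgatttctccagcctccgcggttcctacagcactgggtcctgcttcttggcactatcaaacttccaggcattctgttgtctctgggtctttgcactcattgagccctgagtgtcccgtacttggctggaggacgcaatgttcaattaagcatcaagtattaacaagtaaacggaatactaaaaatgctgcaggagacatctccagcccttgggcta
Hey2 upstream: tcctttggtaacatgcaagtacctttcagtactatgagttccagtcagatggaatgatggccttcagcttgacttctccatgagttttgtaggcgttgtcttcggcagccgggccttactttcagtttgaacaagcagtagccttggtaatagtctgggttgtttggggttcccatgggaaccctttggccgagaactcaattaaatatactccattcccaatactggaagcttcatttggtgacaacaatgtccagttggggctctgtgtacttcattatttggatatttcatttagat

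The *Bcl2l1* site held a match to the GR consensus close to its centre, and it was the only 1 of the 251 sites to do so (0.398%, against 0.476% of all 160980 sites). Neither of the other 2 stretches held the consensus or the half-site. Of the 2 called sites not printed, that 49.4 kb downstream of *Id1* held 1 half-site and the other none. Over the 251 sites the half-site AGAACA was present at 26.3% (30.5% of all sites), GTGGGAA at 12.7% (9.42%), GGCGCC at 16.3% (7.99%), the SMAD word CAGAC at 63.7% (64.7%), the HES N-box CACNAG at 58.2% (58.2%), the E-box CACGTG at 5.58% (6.20%), the AP-1 word TGANTCA at 9.96% (11.4%) and the 6-mer ACTGTA at 16.3% (15.9%); the NFI palindrome was at 0 of 251 and 0.0845% of all sites. Both strands were searched. These are shares of sites with the letters and are not evidence of binding. All of the sites belong to 8 loci chosen for their genes. Promoters (GGCGCC at 11.9% of RefSeq promoters) are counted among them, and their part in the share of GGCGCC was not tested.

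Counted in the raw lists before merging, peaks near the 8 genes numbered 287 to 326 per library, of which 216 to 238 had their summit in a kept site and 67 to 88 did not. Per 100000 peaks of the list this was 159 ± 4.00 in GR-con and 165 ± 4.56 in GR-KO (SD, n = 3 each), and the difference of 5.22 had p = 0.2 by a two-sided exact permutation test. Of single genes, *Hey2* and *Hes5* had every GR-KO library above every GR-con library, at 9.31 ± 0.439 against 8.10 ± 0.545 and at 26.7 ± 1.10 against 24.1 ± 2.19 (SD, n = 3 each), both with p = 0.1 in that exact test, the smallest it can give. Of 19960 protein-coding genes with a peak in such a window, 10.7% had every GR-KO library above every GR-con library and 5.01% every one below. The other 6 genes had p-values from 0.2 to 0.9. Near the edge of the windows, the outermost site inside was 99862 bp from *Hey1* (fold percentile 13.6), and the nearest site outside was 100541 bp from *Hey2* (fold percentile 44.5).

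**Figure D4:**
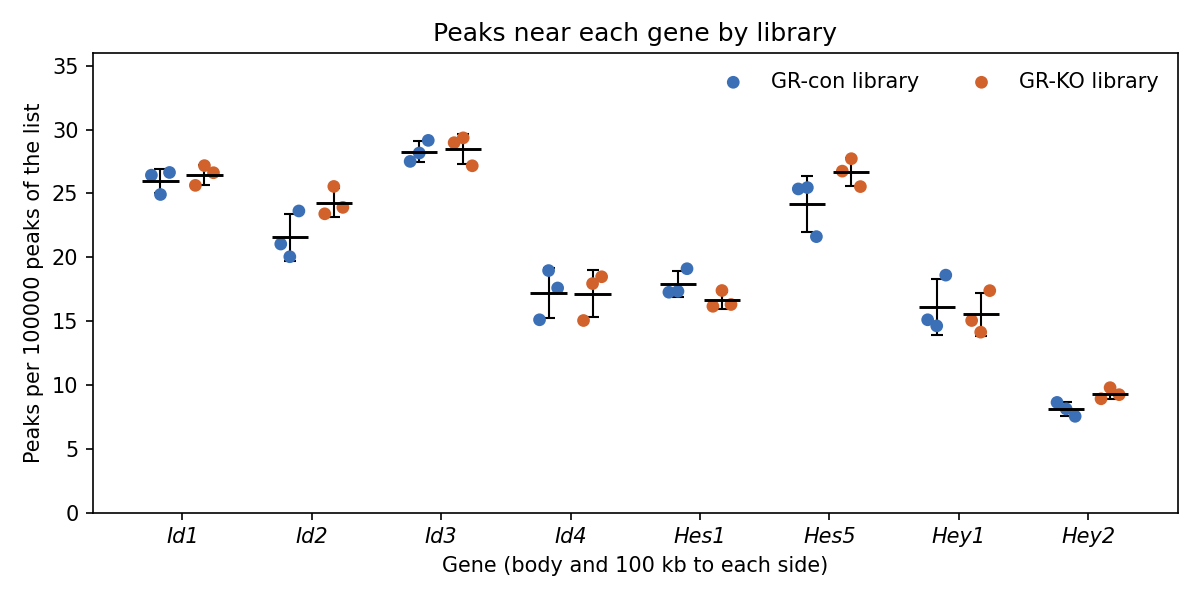
Peaks in the body or within 100 kb of each gene, per 100000 peaks of the list of each library, 1 point per library with the mean and SD of 3. *Hey2* has the fewest (8.10 ± 0.545 in GR-con, 9.31 ± 0.439 in GR-KO) and *Id3* the most, and all 3 GR-KO points lie above the GR-con points at *Hey2* and *Hes5*, as at 10.7% of 19960 protein-coding genes.

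The genes around this family were read at their promoters from 3 lists. Of 25 Notch pathway genes 23 had a promoter site, of 20 BMP pathway genes 18, and of 18 bHLH partners, targets and corepressors all 18. By fold 0 of these 59 were called in limma, with 5 higher and 0 lower at an unadjusted p under 0.05 (of all 13121 promoter sites, 5.69% higher and 2.19% lower). By −log10 p 1 was called higher (0.152% of all promoter sites) and 0 lower (0.29%), with 6 higher and 1 lower at an unadjusted p under 0.05 (4.88% and 4.37%). The called gene was *Dll1*, a Notch ligand presented by neighbouring cells (chr17:15375800-15376199). Its −log10 p was 16.7, 19.0 and 17.5 in GR-con and 44.0, 52.6 and 45.1 in GR-KO, and its fold 3.74, 4.26 and 3.67 against 5.94, 6.47 and 6.11, so that the groups were far apart in both. The score rose by 0.52 by −log10 p (SE 0.10; limma, adjusted p = 0.00998; 0.00998 to 0.167 over the alternatives) and differed by 0.52 by fold (SE 0.12; limma, adjusted p = 0.129). Left without any 1 of the 6 libraries, *Dll1* had an adjusted p of 0.0522 to 0.0928 by −log10 p and was no longer called, nor was it by the covering peak (0.167). The strongest promoters of the lists were those of *Ncstn*, a subunit of the γ-secretase that releases the Notch intracellular domain (fold percentile 99.1), *Max*, the partner of MYC (95.2), and, level with each other, *Smad1* and *Smad4*, which carry the BMP signal (94.5 each, with overlap over the 6 libraries). In their level over the 6 libraries, *Id4* was most like the BMP receptor *Bmpr2* (Euclidean distance of 2.73 percentile points over the 6 libraries), *Id2* most like the Notch feedback gene *Nrarp* (3.55), *Id1* most like the BMP inhibitor *Smad6* (4.24), and *Hey2* most like *Tcf3* (4.83), among 59 promoters. For the other 4 genes the distance ran from 5.13 to 15.2.

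The labels could be checked in part. In the body of *Nr3c1*, the gene of GR, 2 of 17 sites were called by fold and 2 by −log10 p. At the site of smallest p the fold was 17.4, 17.4 and 14.3 in GR-con and 6.68, 4.73 and 6.36 in GR-KO (score difference −0.98; SE 0.10; limma, adjusted p = 0.0241). Under the replicate block, and without GR-con 1, GR-con 2 or GR-con 3, 0 of all 160980 sites were called by fold, those in *Nr3c1* included. All 10 astrocyte marker genes had a promoter peak in all 6 libraries, *Aqp4*, *Gja1* and *Aldh1l1* among them. Promoter sites were held for 8 of 10 neuronal markers (3 in all 6 libraries, and none for *Slc17a7* and *Neurod6*), 3 of 6 oligodendrocyte markers (none for *Mog*, *Mobp* and *Mag*), 3 of 6 microglial markers (none for *Cx3cr1*, *Csf1r* and *C1qa*), 2 of 5 endothelial markers (none for *Cldn5*, *Pecam1* and *Tek*) and both oligodendrocyte precursor markers. No marker promoter was called. The median fold percentile of the astrocyte promoters was 65.3 to 65.8 in GR-con and 69.1 to 70.7 in GR-KO, the groups not overlapping. In the same order, it was 20.2 to 35.8 and 25.3 to 33.0 for the neuronal promoters, 89.3 to 90.4 and 88.8 to 90.5 for those of oligodendrocyte precursors, 66.9 to 79.7 and 67.4 to 79.9 for the microglial, 41.5 to 47.6 and 36.2 to 39.9 for the endothelial and 0 to 33.5 and 0 to 12.2 for the oligodendrocyte promoters. These are medians over the promoters that had a site. The precursor and microglial promoters with a site thus stood about as high as, or higher than, the astrocyte promoters. The endothelial median is over 2 promoters that lay in opposite directions, with score differences by fold of −0.41 at *Kdr* and 0.29 at *Flt1*, neither called. The median score difference of the astrocyte promoters was 0.107 by fold and 0.0216 by −log10 p. By fold it was also positive in the Notch, BMP and bHLH lists (0.0580, 0.0726 and 0.0508). It was negative for the microglial (−0.0114) and endothelial (−0.0622) promoters. The part of such a difference in the values of the 8 genes was not tested.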

How the data were processed

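ATAC-seq peak lists of 3 GR-con and 3 GR-KO libraries were used. Per the labels the build is mm10. The authors ran the ENCODE ATAC-seq pipeline with default parameters and deposited, for each library, peaks with a score (capped by the pipeline), a fold enrichment (a ratio over the local background of the library), and p- and q-values as −log10. The score was not analysed, and the −log10 q-value served as a filter. No read counts are in the lists, so depth is unknown here and DiffBind was not repeated. The lists hold 179462 to 198929 peaks, and a longer list may reflect deeper sequencing. Rows that share an interval with several summits were kept as separate summits.

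Summits were extended by 200 bp to each side, taken in order of fold percentile without overlap, and kept with a summit in at least 2 libraries. A library without a peak was ranked lowest. Scores were compared with limma 3.58.1 in R 4.3.3 (two-sided, variance trend, no block, adjusted p under 0.05), tested on simulated data. Single values were compared with exact permutation tests (scipy 1.17.1, Python 3.11.15). Motifs were read with pysam 0.24.0; no peak of 1116429 ended beyond its GRCm38 chromosome. Gene positions were from GENCODE.

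The genes, the lists, the tests and the alternatives were chosen with earlier results of these data known. Sites named in the text were, for each gene, the promoter and the strongest distal site, and over all genes the 3 of smallest p by each measure, all called sites and up to 3 with a peak in 1 condition only. Of the pathway lists, called genes and the strongest promoter of each list were named, and the promoter most like each gene. Alternatives were the covering peak (a peak that covers over 200 bp of a site), a q-value of 0.01 or less, equal list lengths, a window of 50 kb, the nearest gene, a peak in at least 3 libraries, no variance trend, a replicate block and each library left out; for the pathway promoters, and for single sites under equal list lengths, at least 3 libraries and no variance trend, they were added after the data were seen. Libraries are separate pools of mice.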

Additional observations from a re-analysis of the deposited data

How the results depend on the processing

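By fold, 0 sites were called lower under every alternative and 0 higher under all but the fit without a variance trend, which gave 1 by fold and 1 by −log10 p, both the *Hey2* site kept through its GR-KO peaks alone. By −log10 p, the 4 lower sites were 2 with a window of 50 kb, 1 with the nearest gene, 0 without a variance trend, and 1 to 4 with each library left out (1 without GR-con 1, GR-con 2 or GR-KO 2, and 2 without GR-KO 3). Sites with a peak in GR-con only numbered 2 by the covering peak and 0 to 4 with a library left out (2 without GR-con 1, 1 without GR-con 2, 4 without GR-con 3 and 3 without GR-KO 3). Those in GR-KO only numbered 0 by the covering peak, 2 at a q-value of 0.01 or less, 2 with equal list lengths and 1 to 4 with a library left out (3 without GR-con 1, 2 without GR-con 3, and 4 without GR-KO 1, GR-KO 2 or GR-KO 3). The share of peaks near the genes stayed higher in GR-KO, by 2.96 to 7.53 per 100000 with a library left out. Pathway promoters higher by −log10 p numbered 0 by the covering peak and 0 with each library left out.

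Replicate numbers are shared between conditions, and the values do not settle whether they pair the libraries. Deviations of same-numbered libraries correlated at 0.0290, −0.00483 and 0.0246. Libraries of replicates 1 and 3 correlated best with their own number, and those of replicate 2 did not. With the replicate block, 3 of the 4 lower sites were called by −log10 p, the *Id2* site having an adjusted p of 0.0569 in limma, and genome-wide calls were 0 lower and 0 higher by fold (203 and 98 without it) and 699 and 502 by −log10 p (1346 and 1222). Genome-wide calls by fold and by −log10 p were 457 and 557 lower, and 253 and 328 higher, by the covering peak; without a variance trend they were 1071 lower and 769 higher by fold and 1156 lower and 808 higher by −log10 p. With a library left out, 0 to 2 of all sites were called lower by fold genome-wide. By −log10 p, 187 (without GR-con 1) to 851 (without GR-KO 1) were then called lower. From 204 (without GR-con 1) to 408 (without GR-KO 1) were called higher. Of 528 values of single sites under an alternative, 492 kept direction and call, 26 were no longer called, 2 were newly called and 8 changed sign. The 2 newly called were both at the *Hey2* site kept through its GR-KO peaks alone, in the fit without a variance trend. Values of that site are counted in the 528 but are no test of it. Those that changed sign were all differences by fold that were not called, with ranges over the left-out libraries of −0.0477 to 0.0440 at the *Id2* distal element, −0.0316 to 0.0516 at the *Id1* site 49.4 kb downstream, −0.108 to 0.0478 at the *Hey1* distal element and −0.0137 to 0.0371 at the *Hes5* promoter. The causes were not tested. Without read counts, a weak peak cannot be told from a missing one.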
